A study of Mus musculus with 6 samples.

Results

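Peroxisome biogenesis factors, peroxisomal oxidation enzymes and the enzymes that make ether lipids were followed in gWAT, the gonadal depot of white adipose tissue, a visceral fat that in males lies on the epididymis. The set held 39 genes of the 19790 in the table, chosen by symbol and matched through their NCBI gene identifiers, and all 39 were found. They comprised 13 biogenesis genes, 15 oxidation genes, 6 ether lipid synthesis genes and 5 other peroxisomal genes (redox enzymes and membrane proteins). The RNA came from wild-type C57BL/6 mice, 3 on a normal chow diet (NCD) and 3 on a high-fat diet (HFD), each diet given for 8 weeks, and the labels name no other treatment. The labels put the start of the diets at 6 weeks of age and the methods at 8 weeks, and the methods state that the animals were adult males. The study used these libraries to ask how feeding changes the genes of plasmalogen metabolism.

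Peroxisomes are organelles bounded by a single membrane. Their matrix enzymes are made in the cytosol and carried in by shuttling receptors, and peroxins (the proteins of the *Pex* genes) build the membrane, run this import and drive division. The organelle shortens very long and branched fatty acids by beta- and alpha-oxidation, which produces hydrogen peroxide. It also carries out the first steps of ether lipid synthesis, in which a fatty alcohol replaces an acyl chain on a glycerol backbone. Later steps in the endoplasmic reticulum turn these lipids into plasmalogens, the vinyl ether phospholipids of cell membranes. Many genes of peroxisomal oxidation are known targets of peroxisome proliferator-activated receptors (PPARs), which bind DNA as partners of retinoid X receptors.

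The sequences before the transcription start sites of *Pex11a*, *Pex11g* and *Cat* are shown because these genes differed between the diets in at least 1 of the 2 main fits and because AGGTCA, the core hexamer recognised by many nuclear receptors, occurs in the last 2 of them and not in the first. Each line gives the 250 bases before the RefSeq start, 5′ to 3′ along the gene, from build GRCm38.p6. They lie on the minus strand at chr7:79743132-79743381 for *Pex11a*, chr8:3467649-3467898 for *Pex11g* and chr2:103485154-103485403 for *Cat*, and capitals mark AGGTCA.
Pex11a: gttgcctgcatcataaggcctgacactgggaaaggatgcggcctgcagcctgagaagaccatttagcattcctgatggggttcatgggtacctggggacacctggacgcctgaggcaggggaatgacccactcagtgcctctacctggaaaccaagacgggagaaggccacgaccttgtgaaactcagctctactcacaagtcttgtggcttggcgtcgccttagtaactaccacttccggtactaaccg
Pex11g: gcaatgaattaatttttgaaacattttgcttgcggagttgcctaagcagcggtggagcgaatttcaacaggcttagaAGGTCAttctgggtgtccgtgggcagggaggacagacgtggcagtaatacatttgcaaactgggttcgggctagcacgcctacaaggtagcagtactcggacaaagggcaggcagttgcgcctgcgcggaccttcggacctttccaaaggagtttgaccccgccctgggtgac
Cat: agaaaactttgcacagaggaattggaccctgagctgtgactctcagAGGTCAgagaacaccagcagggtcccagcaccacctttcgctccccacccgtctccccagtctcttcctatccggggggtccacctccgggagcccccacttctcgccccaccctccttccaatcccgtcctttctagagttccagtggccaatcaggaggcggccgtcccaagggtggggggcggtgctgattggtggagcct
The search covered 250 bases before to 50 bases after each start on both strands (AGGTCA and its reverse complement TGACCT). RefSeq windows matched 31 of the 39 genes, with 35 starts. The hexamer began at position -173 from the start in *Pex11g*, -204 in *Cat*, -109 in *Scp2*, -220 in *Slc27a2* and 37 in *Phyh*, 5 of 31 genes. Over all 32851 windows 16.3% held it. *Abcd3*, called lower in both main fits, held no match and its sequence is not printed. The direct repeat AGGTCANAGGTCA, the textbook binding form of PPAR partners, was in no window of the 39 genes and in 13 windows overall (0.0396%). A match of letters describes the window and does not show binding.

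Libraries held between 49575113 and 66360046 counts, and levels are given as CPM, counts relative to the library total scaled by edgeR's TMM method. NCD replicate 1 stood apart. Secretory genes of the seminal vesicle took 58.6% of its counts, against 11.2% in NCD replicate 2, 2.30% in NCD replicate 3 and 2 to 8 counts in all in each HFD library. Its summed adipocyte markers (13 genes, none at 0 in any library) were at 7091 CPM, against 27177 and 36781 in the other NCD mice and 14654 to 20050 on HFD. Summed epithelial and smooth muscle markers were 13.5 and 14.6 times the mean of the other NCD mice. Smooth muscle markers were at 445 CPM in NCD replicate 2, 115 CPM in NCD replicate 3 and 59.8 to 65.8 CPM on HFD. Epithelial markers were at 131, 35.4 and 33.6 to 141 CPM in the same order. The fold changes of the members are therefore given with and without this library. The fit without it sets 2 NCD mice against the same 3 HFD mice, and seminal vesicle counts remain in those 2 NCD libraries. Every HFD library was above every NCD library in summed macrophage markers (10 genes), from 2207 to 4945 CPM against 723 to 910. Endothelial markers summed to 202 CPM in NCD replicate 1 and to 606 to 818 CPM in the other 5 libraries. Stromal progenitor markers lay between 845 and 1452 CPM, mesothelial markers between 77.1 and 426 CPM, hepatocyte markers between 1.58 and 39.2 CPM and testis and epididymis markers at or under 2.22 CPM. In bulk tissue, fewer cells of a type and less RNA per cell cannot be told apart.

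With all 6 mice the estimates were lower on HFD for 29 of the 38 members tested, against 8376 of all 15241 genes tested. Those of the ether lipid enzymes were divided. With all 6 mice, the quasi-likelihood test of edgeR (p-values adjusted by Benjamini-Hochberg over 15241 genes) called 2 members lower, *Pex11g* and *Abcd3*, and none higher. Of all genes 7.47% were called, 1.90% lower and 5.58% higher. At an unadjusted edgeR p under 0.05, 10 members were lower and 1 higher, against 2088 lower and 2436 higher of the 15241 genes. DESeq2 called 8 members lower and 1 higher, and 3904 genes in all. With NCD replicate 2, NCD replicate 3 or any of the HFD mice left out instead, edgeR called no member and 2 to 7 genes in all. In the fit without NCD replicate 1, edgeR called 12 members lower and 2 higher, where 20.9% of all genes were called, 10.1% lower and 10.7% higher. Those 14 included the 2 called with all mice. The median log2 fold change of HFD against NCD over the 38 members tested was -0.48 with all mice and -0.63 without NCD replicate 1, while the median over all genes tested was -0.08 and 0.02. With all mice, every HFD value lay below every NCD value in 11 members and above in 2, against 18.7% and 20.5% of all genes (39.2% in either direction). With that library left out this held for 27 members below and 5 above, against 29.1% and 27.9% of all genes.

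**Figure D1:**
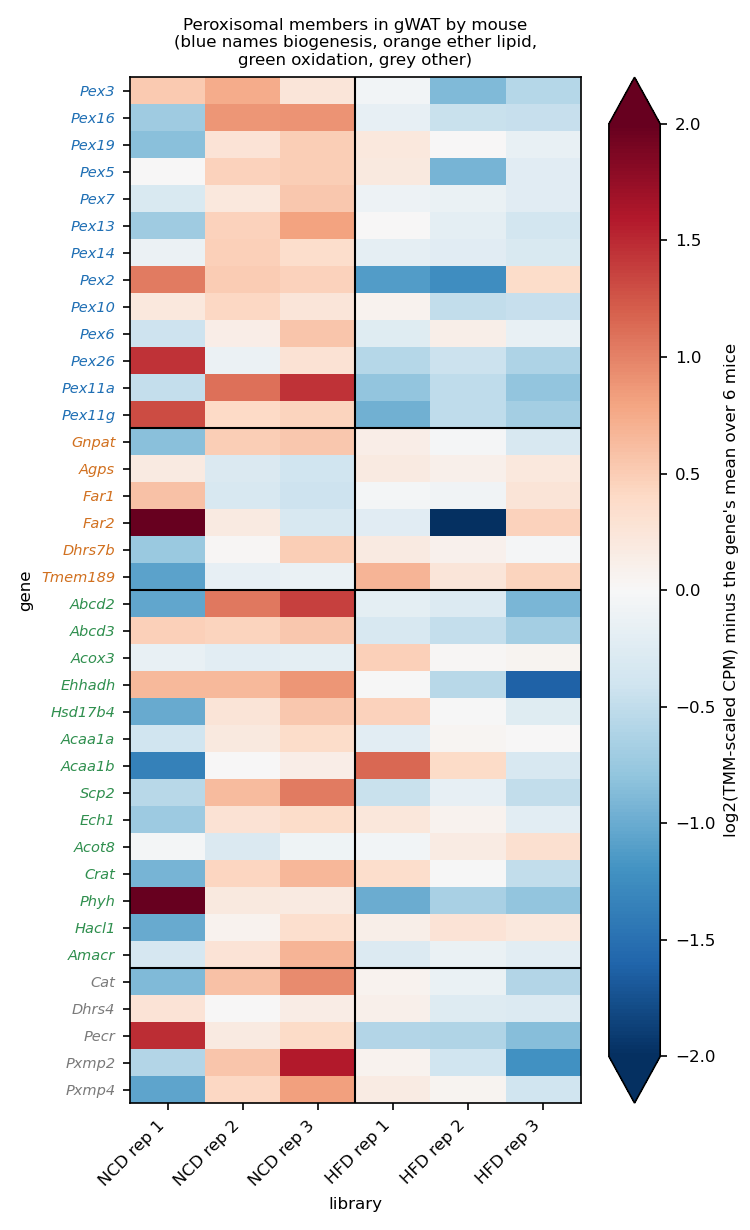
Log2 TMM-scaled CPM of 38 members in each of the 6 libraries, as the difference from the gene's mean over the mice (colour scale, log2 units), with NCD libraries left of the vertical line. Rows are grouped by role, and most biogenesis rows are red in NCD replicates 2 and 3 and pale or blue on HFD, while NCD replicate 1 departs from the other NCD mice in both directions.

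The roles differed in their medians. The 13 biogenesis genes had a median log2 fold change of -0.58 with all mice and -0.71 without NCD replicate 1. All 13 estimates were negative in both fits. That of *Pex19* turned to 0.05 under scaling by total counts outside the seminal vesicle genes. The 14 oxidation genes tested had medians of -0.18 and -0.55 (15 tested in the latter fit). The ether lipid enzymes lay at 0.05 (6 tested) and 0.44 (5 tested), and the 5 other genes at -0.60 and -0.95. The biogenesis genes were called lower in 1 case of 13 with all mice and 5 of 13 without NCD replicate 1. In the oxidation group the counts were 1 of 14 and 5 of 15, in the ether lipid group 0 of 6 and 2 of 5 (both higher), and in the other group 0 of 5 and 2 of 5. Of all genes, 1.90% were called lower and 5.58% higher with all mice, and 10.1% and 10.7% without NCD replicate 1. These medians and counts describe the groups, and the difference between groups was not tested.

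**Figure D2:**
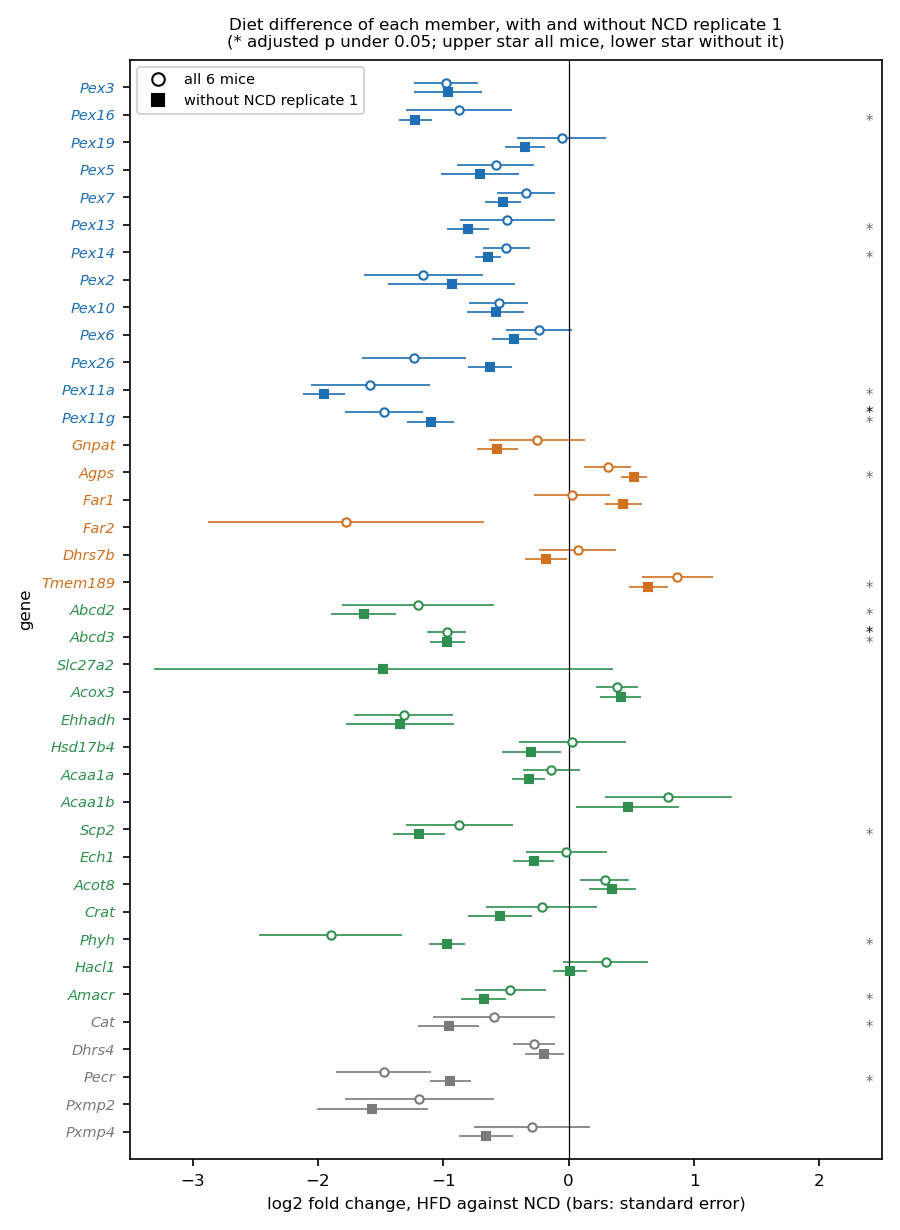
Log2 fold change of HFD against NCD for each member with its standard error (horizontal bars), with all mice (open circles) and without NCD replicate 1 (squares), coloured by role as blue biogenesis, orange ether lipid, green oxidation and grey other. Stars mark an adjusted p under 0.05. All blue symbols lie left of 0, with *Pex19* at -0.05 with all mice (0.05 under scaling by total counts outside the seminal vesicle genes).

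*Pex11a* and *Pex11g* encode membrane peroxins that elongate peroxisomes before they divide, and they had the lowest fold changes among the biogenesis genes with all mice. *Pex11g* had 27.3, 14.6 and 15.04 CPM in the 3 NCD mice, in the order of the replicates, and 5.70, 7.83 and 6.92 CPM in the 3 HFD mice. The diets did not overlap, and the highest value came from NCD replicate 1. It fell by 1.47 on the log2 scale (standard error 0.311, edgeR adjusted p = 0.0454) with all mice and by 1.10 (standard error 0.185, edgeR adjusted p = 0.0155) without that library. When 1 of the remaining 5 mice was dropped the estimate lay between -1.64 and -1.35 and no longer passed. It did not pass with no filter on low counts (-1.45) or with scaling by total counts outside the seminal vesicle genes (-1.39). *Pex11a* was at 10.8, 32.3 and 40.9 CPM on NCD and 8.70, 10.6 and 8.74 CPM on HFD. NCD replicate 1 lay just above the HFD values, and the other NCD mice were well above it. With all mice the log2 fold change was -1.58 (standard error 0.476, edgeR adjusted p = 0.0913). Without NCD replicate 1 it fell by 1.95 (standard error 0.169, edgeR adjusted p = 0.00544), a 3.88-fold lower level and the lowest value among the 38 members tested in that fit.

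*Pex3*, *Pex16* and *Pex19* serve the insertion of membrane proteins, *Pex19* as their soluble carrier, *Pex3* as its docking site and *Pex16* as a membrane factor that helps to place *Pex3*. *Pex16* was at 42.7, 128 and 130 CPM on NCD and 62.3, 51.2 and 50.7 CPM on HFD. The diets overlapped only through NCD replicate 1, the lowest of all 6 mice. Its log2 fold change was -0.87 (standard error 0.423, edgeR adjusted p = 0.225) with all mice, and it fell by 1.22 (standard error 0.131, edgeR adjusted p = 0.00667) without NCD replicate 1. *Pex3* depended little on that library, with 41.1 to 57.7 CPM on NCD and 18.8 to 33.4 CPM on HFD and no overlap. Its log2 fold changes of -0.98 and -0.96 did not pass in either fit (edgeR adjusted p = 0.0700 and 0.0590). *Pex19* overlapped, with a range of 91.1 to 231 CPM on NCD and 147 to 190 CPM on HFD and a log2 fold change of -0.05 (standard error 0.355, edgeR adjusted p = 0.932), or -0.35 (edgeR adjusted p = 0.171) without NCD replicate 1.

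The cargo receptors *Pex5* and *Pex7*, which bind the targeting signals of matrix enzymes, had log2 fold changes of -0.58 and -0.34 (edgeR adjusted p = 0.260 and 0.367). In both genes the diets overlapped with all mice and separated without NCD replicate 1, where the estimates were -0.71 and -0.52 and neither passed (edgeR adjusted p = 0.158 and 0.0527). *Pex13* and *Pex14* form the docking site at the membrane. *Pex14* was at 44.4, 67.5 and 61.8 CPM on NCD and 42.6, 41.3 and 39.1 CPM on HFD, a narrow range on HFD with every NCD mouse above it. *Pex13* was at 57.2, 128 and 162 CPM on NCD and 94.0, 81.3 and 72.6 CPM on HFD, so that NCD replicate 1 was the lowest of the 6. Neither passed with all mice (log2 fold changes -0.50 and -0.49 for *Pex14* and *Pex13*, edgeR adjusted p = 0.141 and 0.419). Without NCD replicate 1 they fell by 0.64 and 0.80 (edgeR adjusted p = 0.0140 and 0.0269).

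*Pex2* and *Pex10* belong to the ubiquitin ligase that marks used receptors, *Pex6* to the ATPase that pulls them out of the membrane, and *Pex26* anchors that ATPase. None of these 4 genes passed in either edgeR fit. *Pex26* ranged from 12.6 to 36.9 CPM on NCD and from 8.83 to 10.1 CPM on HFD, and *Pex10* from 8.53 to 9.80 and from 5.26 to 7.75 CPM, without overlap in either gene. *Pex26* had a log2 fold change of -1.23 with all mice and -0.63 without NCD replicate 1, which had its highest value, and *Pex10* of -0.56 and -0.58. *Pex2* was between 41.9 and 62.5 CPM on NCD and at 14.1, 12.9 and 39.3 CPM on HFD, where the third mouse lay close to the NCD range. Its log2 fold change of -1.16 had a standard error of 0.477 (edgeR adjusted p = 0.168), and it was -1.85 without that mouse and -0.93 without NCD replicate 1. *Pex6* had the smallest difference of the 4, with a log2 fold change of -0.23 (standard error 0.264, edgeR adjusted p = 0.579), or -0.43 without NCD replicate 1.

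**Figure D3:**
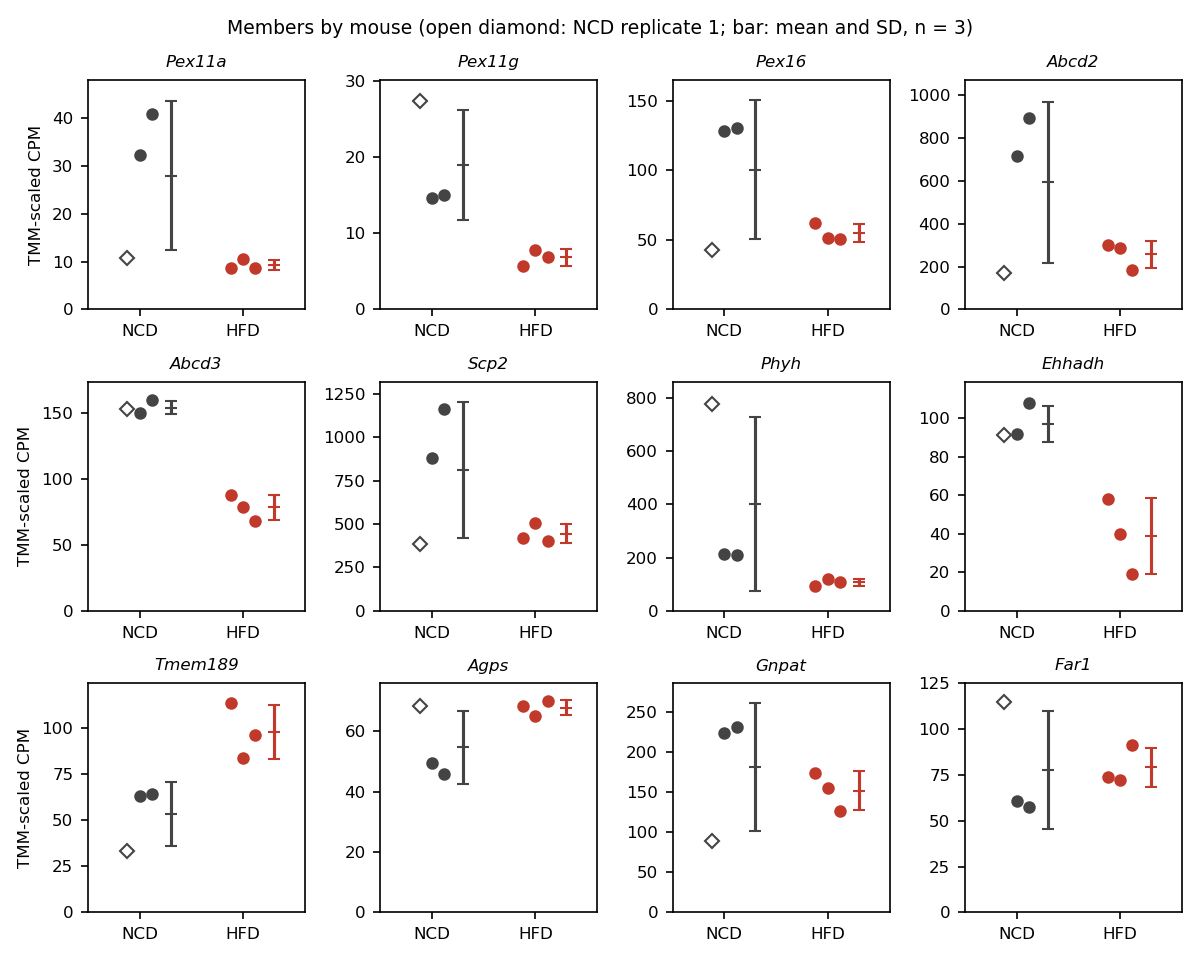
TMM-scaled CPM of 12 members by mouse and diet (each axis starts at 0), with NCD replicate 1 as an open diamond and bars for the mean and SD of 3 mice. *Abcd3*, *Pex11g*, *Ehhadh* and *Phyh* separate below NCD on HFD and *Tmem189* above it with all mice, while *Pex11a* separates by a narrow gap and *Pex16*, *Abcd2*, *Scp2*, *Agps*, *Gnpat* and *Far1* overlap through NCD replicate 1.

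The 6 ether lipid enzymes showed no common direction. *Tmem189* encodes the desaturase that introduces the vinyl ether bond of plasmalogens, and it was the member with the highest positive log2 fold change. It was measured at 33.4, 62.8 and 64.1 CPM on NCD and 113, 83.7 and 95.8 CPM on HFD, with every HFD mouse above every NCD mouse. The log2 fold change was 0.87 (standard error 0.286, edgeR adjusted p = 0.110) with all mice. Without NCD replicate 1, the lowest of the 6, it rose by 0.63 (standard error 0.155, edgeR adjusted p = 0.0403), a 1.55-fold higher level. In the annotation 29.8% of its exon bases are shared with *Gm20431* on the same strand, and no source used here says how reads on both were counted.

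*Agps* encodes the synthase that places the fatty alcohol and so forms the ether bond. It was at 68.4, 49.6 and 45.9 CPM on NCD and 68.2, 65.0 and 69.9 CPM on HFD, and NCD replicate 1 was within the HFD range. The log2 fold change was 0.31 (standard error 0.185, edgeR adjusted p = 0.305) with all mice, and it rose by 0.52 (standard error 0.106, edgeR adjusted p = 0.0255) without NCD replicate 1. *Gnpat*, whose product acylates dihydroxyacetone phosphate in the step before, had 89.2, 224 and 231 CPM on NCD and 174, 156 and 127 CPM on HFD. Here NCD replicate 1 was the lowest of the 6 mice and the others were above all HFD mice. The log2 fold change was -0.26 (standard error 0.382, edgeR adjusted p = 0.682) and -0.57 (standard error 0.162, edgeR adjusted p = 0.0590) in the fits with and without it.

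*Far1* and *Far2* encode reductases that supply the fatty alcohol. *Far1* was at 115, 60.9 and 57.5 CPM on NCD and 73.9, 72.2 and 91.6 CPM on HFD, so that NCD replicate 1 was the highest mouse and the other NCD mice the lowest. Its log2 fold change was 0.03 (standard error 0.303, edgeR adjusted p = 0.958), and 0.44 (standard error 0.149, edgeR adjusted p = 0.0914) without that library. *Far2* was almost unmeasured, with 34, 11 and 7 counts on NCD and 8, 2 and 14 counts on HFD. Its estimate was -1.77 (standard error 1.10, edgeR adjusted p = 0.323) with all mice and -2.42 without HFD replicate 3. It did not have enough counts to be tested without NCD replicate 1. *Dhrs7b*, the reductase of the ketone intermediate, was at 23.3, 39.7 and 54.8 CPM on NCD and 44.1, 41.5 and 38.4 CPM on HFD, the HFD mice lying inside the NCD range. Its log2 fold change of 0.07 (standard error 0.307, edgeR adjusted p = 0.892) changed sign to -0.18 without NCD replicate 1.

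Of the 3 oxidation genes that bring acyl chains into the organelle or activate them, *Abcd3* fell in both fits and *Abcd2* in the fit without NCD replicate 1. *Abcd3*, a transporter of branched and long acyl-CoA, gave even values within a diet, 153, 150 and 160 CPM on NCD and 87.8, 79.1 and 68.5 CPM on HFD. The diets were far apart, and NCD replicate 1 lay between the other NCD mice. It fell by 0.97 on the log2 scale in both fits (standard errors 0.154 and 0.138, edgeR adjusted p = 0.0253 and 0.0110), a 1.96-fold and 1.95-fold lower level. When 1 of the remaining 5 mice was dropped it was between -1.05 and -0.87 and no longer passed. *Abcd2*, a related transporter of very long acyl-CoA, was at 169, 714 and 892 CPM on NCD and 302, 284 and 183 CPM on HFD. NCD replicate 1 had the lowest value and the other NCD mice the highest. The log2 fold change was -1.21 (standard error 0.606, edgeR adjusted p = 0.238) with all mice, and without that library it fell by 1.63 (standard error 0.259, edgeR adjusted p = 0.0138). *Slc27a2*, a very long chain acyl-CoA synthetase, had 0, 34 and 3 counts on NCD and 20, 0 and 0 on HFD, and was left out of the test with all mice. Without NCD replicate 1 its log2 fold change was -1.48 with a standard error of 1.83.

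Of the 9 beta-oxidation genes, edgeR called *Scp2* alone, and only without NCD replicate 1 (percentages of all genes called as above). DESeq2 called *Ehhadh* lower with all mice and without NCD replicate 1, where it called 3904 and 5393 of all genes. *Scp2* encodes a thiolase for branched chains and a sterol carrier protein. It was measured at 386, 881 and 1164 CPM on NCD and 418, 505 and 405 CPM on HFD, with NCD replicate 1 just under the HFD mice. The log2 fold change was -0.87 (edgeR adjusted p = 0.228) with all mice and it fell by 1.19 (standard error 0.209, edgeR adjusted p = 0.0170) without that library. *Ehhadh*, the bifunctional enzyme of straight chains, was at 91.2, 91.9 and 108 CPM on NCD and 58.1, 39.8 and 19.0 CPM on HFD. Its diets did not overlap, but the HFD mice were widely spread, and the log2 fold changes of -1.32 (standard error 0.396, edgeR adjusted p = 0.0915) and -1.35 (standard error 0.429, edgeR adjusted p = 0.0776) did not pass. *Acox3*, an oxidase of branched chains, was higher on HFD without overlap, at 48.7 to 50.5 CPM on NCD and 57.0 to 78.2 CPM on HFD, but its log2 fold changes of 0.39 with all mice (standard error 0.165, edgeR adjusted p = 0.181) and 0.41 without NCD replicate 1 (edgeR adjusted p = 0.132) did not pass either.

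The other 6 beta-oxidation genes overlapped with all mice and passed in neither edgeR fit. *Hsd17b4*, the second bifunctional enzyme, *Ech1*, an isomerase of dienoyl-CoA, and *Crat*, which makes acetyl-carnitine for export, had log2 fold changes of 0.03, -0.02 and -0.21. They were -0.30, -0.28 and -0.55 without NCD replicate 1. The thiolases *Acaa1a* and *Acaa1b* were at -0.14 and 0.80, and the thioesterase gene *Acot8* at 0.29. Without that library these were -0.32, 0.47 and 0.35. Of the 100-base windows of the transcripts, 7.21% of those of *Acaa1a* and 19.3% of those of *Acaa1b* occur in the other gene, so that reads may be split between them.

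Alpha-oxidation removes the first carbon of branched acids such as phytanic acid. *Phyh*, the hydroxylase of this pathway, was at 778, 214 and 211 CPM on NCD and 94.0, 120 and 108 CPM on HFD. The diets did not overlap, and NCD replicate 1 was 3.66 times the mean of the other NCD mice. With all mice the log2 fold change was -1.90 (standard error 0.569, edgeR adjusted p = 0.0910), and without that library it fell by 0.97 (standard error 0.143, edgeR adjusted p = 0.0118). *Amacr*, the racemase that prepares branched chains for oxidation, was at 8.10, 12.4 and 16.4 CPM on NCD and 8.51, 9.39 and 8.82 CPM on HFD. NCD replicate 1 was the lowest of the 6, and without it the gene fell by 0.68 (standard error 0.177, edgeR adjusted p = 0.0474), against a log2 fold change of -0.47 (edgeR adjusted p = 0.316) with all mice. *Hacl1*, the lyase of alpha-oxidation, differed least, with log2 fold changes of 0.30 and 0.01 (edgeR adjusted p = 0.585 and 0.972), and 58.2% of its exon bases are shared with *Gm49387* on the same strand.

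Of the other peroxisomal genes, *Cat* encodes catalase, which breaks down hydrogen peroxide. It was at 236, 656 and 845 CPM on NCD and 459, 400 and 290 CPM on HFD, again with NCD replicate 1 lowest and the other NCD mice highest. Its log2 fold change was -0.60 (edgeR adjusted p = 0.442) with all mice, and it fell by 0.96 (standard error 0.246, edgeR adjusted p = 0.0449) without that library. *Pecr*, a reductase of enoyl-CoA, was at 33.3, 13.5 and 15.5 CPM on NCD and 7.92, 7.85 and 6.60 CPM on HFD, with no overlap and the highest value in NCD replicate 1. The log2 fold change was -1.48 (standard error 0.379, edgeR adjusted p = 0.0672), and without that library it fell by 0.95 (standard error 0.164, edgeR adjusted p = 0.0167). The membrane protein genes *Pxmp2* and *Pxmp4* and the carbonyl reductase gene *Dhrs4* overlapped with all mice and passed in neither fit (log2 fold changes -1.19, -0.30 and -0.28 with all mice and -1.57, -0.66 and -0.19 without NCD replicate 1). The estimate of *Pxmp2* was -0.50 without NCD replicate 3, its highest mouse.

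Levels of different genes were compared per exon length (FPKM from TMM-scaled counts). *Scp2* had the highest mean on NCD, 306 ± 149 FPKM (SD, n = 3), followed by *Phyh* (279 ± 227), *Cat* (222 ± 119) and *Ech1* (180 ± 64.9). The spreads of these neighbours were wider than the gaps between them. The place of *Phyh* rested on NCD replicate 1, since it was at 541, 149 and 147 FPKM in the NCD mice. Over NCD replicates 2 and 3 alone the order was *Scp2* (386), *Cat* (287), *Ech1* (217) and *Phyh* (148 FPKM). On HFD the means were 167 ± 20.7 for *Scp2*, 177 ± 26.6 for *Ech1*, 147 ± 32.9 for *Cat* and 74.7 ± 8.94 for *Phyh*. The biogenesis genes reached from 3.18 ± 0.905 FPKM for *Pex7* to 72.0 ± 35.8 for *Pex16* on NCD, and over NCD replicates 2 and 3 from 3.56 for *Pex26* to 92.7 for *Pex16*. *Gnpat* (60.8 ± 26.8) was the most abundant ether lipid enzyme on NCD and *Agps* (6.43 ± 1.42) the least abundant apart from *Far2* (0.0856 ± 0.0967), with means over NCD replicates 2 and 3 of 76.3, 5.62 and 0.0299 FPKM. On HFD *Tmem189* reached 41.9 ± 6.33 FPKM, next to *Gnpat* at 51.0 ± 7.99.

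**Figure D4:**
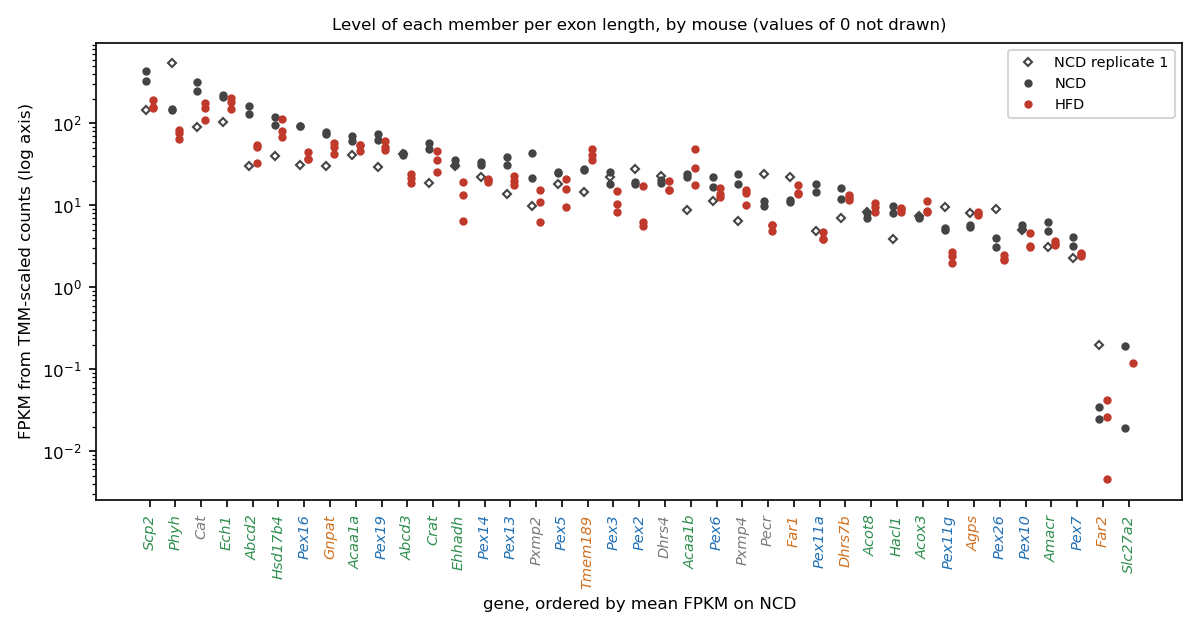
FPKM of the 39 members in each mouse on a log axis, ordered by the mean on NCD and coloured by role on the gene axis, with values of 0 not drawn. *Scp2*, *Phyh*, *Cat* and *Ech1* are at the top, *Phyh* in this place through NCD replicate 1, and *Far2* and *Slc27a2* lie under 1 FPKM in every mouse.

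Ratios of related members within a mouse, which do not depend on the scaling between libraries, were compared for 7 pairs by an exact two-sided permutation test, where 3 mice against 3 cannot give a p below 0.1. Only *Pxmp2*/*Pxmp4* separated, with ratios of 1.49, 1.19 and 1.83 on NCD and 1.01, 0.792 and 0.617 on HFD. The mean log2 ratio differed by -0.91 (exact permutation p = 0.1, adjusted over the 7 pairs 0.7), and by -0.90 without NCD replicate 1. The ratio *Gnpat*/*Agps*, of successive enzymes, was 3.71, 12.9 and 14.4 on NCD and 7.26, 6.81 and 5.15 on HFD, so that NCD replicate 1 was below all HFD mice and the others above. The difference in log2 ratio was -0.48 (exact permutation p = 0.5) and became -1.10 without that library. In *Pex11a*/*Pex11g* it was 0.04 (exact permutation p = 1) and -0.84 without NCD replicate 1, and in *Abcd2*/*Abcd3* 0.06 (exact permutation p = 1) and -0.69. The differences for *Acaa1a*/*Acaa1b*, *Far1*/*Far2* and *Pex5*/*Pex7* were -0.92, 1.78 and -0.34 (exact permutation p = 0.3, 0.2 and 0.6), and -0.67, 1.19 and -0.27 without NCD replicate 1. That of *Far1*/*Far2* was 0.89 without HFD replicate 2.

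NCD replicate 1 was below both other NCD mice in 26 members, above both in 11 and between them in 2. Among members with counts in that library, *Abcd2* was lowest against the mean of the others, at 0.210 times, followed by *Pex11a* (0.295), *Pxmp2* (0.298), *Pxmp4* (0.310) and *Cat* (0.315). The summed adipocyte markers were at 0.222 times in the same comparison. *Far2* (6.59 times, from 34 counts), *Phyh* (3.66), *Pex26* (2.53), *Pecr* (2.30), *Far1* (1.94) and *Pex11g* (1.85) were higher there. *Pex3* (1.01), *Acox3* (1.03) and *Abcd3* (0.987) were near the other NCD mice. The part of the admixed seminal vesicle RNA in these values was not tested.

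**Figure D5:**
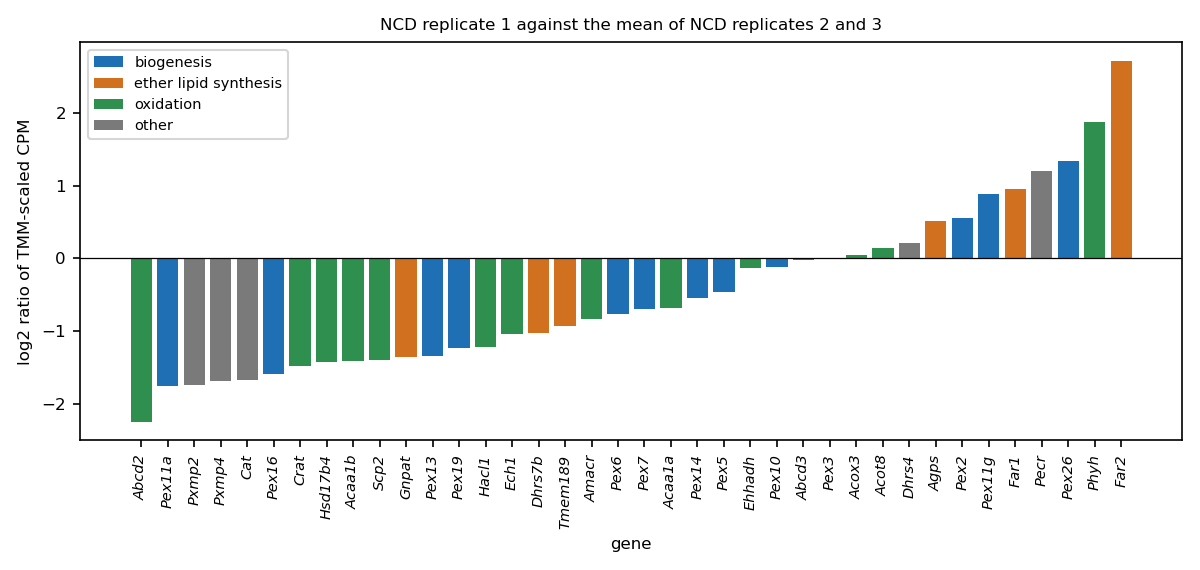
Log2 ratio of TMM-scaled CPM in NCD replicate 1 to the mean of NCD replicates 2 and 3, 1 bar per gene, coloured by role, for the 38 members with counts in that library. Bars run from *Abcd2* (0.210 times) to *Far2* (6.59 times), and each role has bars on both sides of 0.

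Several lists of cell type markers also held genes that differed between the diets. With NCD replicate 1 left out, the edgeR test called 6 of the 13 adipocyte markers lower and none higher, and 9 of the 10 macrophage markers higher. With all mice these counts were 0 and 4. Of all genes, 10.1% were called lower and 10.7% higher without that library, and 1.90% and 5.58% with all mice. Without it, 3 of 4 smooth muscle markers, 1 of 5 epithelial markers and all 11 seminal vesicle genes were also called lower. NCD replicates 2 and 3 held 11.2% and 2.30% of counts in seminal vesicle genes, so diet and admixture cannot be told apart in these lists. In that fit 1 of 4 markers was called higher in each of the endothelial, stromal progenitor and mesothelial lists. The share of any of these changes in the lower levels of the peroxisomal genes was not tested. Over the 13 adipocyte markers the median log2 fold change was -0.74 without NCD replicate 1 (range -3.42 to 0.78, 11 negative and 2 positive). With all mice it was -0.31 (9 negative and 4 positive). *Adipoq*, an adipocyte hormone and 1 of the markers not called, had a log2 fold change of -0.56 (edgeR adjusted p = 0.245) in the fit without NCD replicate 1. With all mice its value was -0.16 (edgeR adjusted p = 0.882).

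Other genes of the peroxisome, outside the 39, were followed in a list of 37, of which 29 had enough counts with all mice. *Acox2*, an oxidase of bile acid intermediates and branched chains, fell from 25, 21 and 30 counts on NCD to 3, 4 and 7 counts on HFD (edgeR adjusted p = 0.0412). In the fit without NCD replicate 1, 12 of 31 genes were called lower, against 10.1% of all genes, with a median log2 fold change of -0.51 (-0.39 with all mice). Besides *Acox2* these were *Crot*, *Acot4*, *Nudt7*, *Nudt19* and *Mlycd*, which act on acyl-CoA or CoA, *Ddo* and *Paox*, oxidases that release hydrogen peroxide, *Gstk1*, *Idh1*, the carrier *Slc25a17* and the protease *Lonp2*. *Acot4* fell by 1.73, *Paox* by 1.34, *Nudt7* by 1.33 and *Lonp2* by 0.95 on the log2 scale (edgeR adjusted p = 0.0170, 0.00703, 0.00810 and 0.0169). Their estimates with all mice were -1.31, -0.99, -0.96 and -0.71, and none passed.

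Of 6 genes of ether lipid metabolism outside the members, *Tmem86a*, the lysoplasmalogenase of the study, was called higher in both fits (log2 fold change 1.86 and 1.62, edgeR adjusted p = 0.0253 and 0.00544). *Chpt1*, a choline phosphotransferase, fell by 1.95 without NCD replicate 1 (edgeR adjusted p = 0.0126), against an estimate of -1.52 (edgeR adjusted p = 0.173) with all mice. Of 6 regulators of peroxisomal genes, none was called with all mice and 4 were called lower without NCD replicate 1, where 20.9% of all genes were called and 10.1% called lower. *Ppara*, the nuclear receptor known for inducing peroxisomal oxidation, was at 8.80, 12.5 and 19.4 CPM on NCD and 5.36, 5.83 and 3.28 CPM on HFD, without overlap. It fell by 1.71 (edgeR adjusted p = 0.0196) in that fit, and its log2 fold change was -1.49 (edgeR adjusted p = 0.0658) with all mice. *Pparg*, the adipocyte member of the same family, *Rxra*, their partner, and *Ppargc1a*, a coactivator, were also called lower there (edgeR adjusted p = 0.0123, 0.0159 and 0.0309), with estimates of -0.67, -0.53 and -1.64 with all mice. *Ppargc1a* was at 2.13, 6.64 and 6.92 CPM on NCD and 2.51, 1.68 and 0.861 CPM on HFD.

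In the annotation, exons of 15 members overlap exons of another gene. The largest shared parts after *Hacl1* were on the opposite strand in *Pex11g* (48.6% with *Gm44775*) and *Pex14* (31.4% with *Gm17029*). The labels name a stranded kit, and no source used here says whether strand was used in counting, so that reads from such pairs may not be told apart.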

How the data were processed

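Gonadal fat of 6 mice (3 per diet) was profiled by RNA-seq with a stranded mRNA kit per the labels. The table that the authors deposited holds raw read counts by NCBI gene, not normalized, with a column for each mouse (0 columns had no sample). The submitters' processing notes name bcl2fastq 2.20.0, Trimmomatic, HISAT2 2.1.0, StringTie 1.3.4d and DESeq2 with builds mm10 and GRCm38. How counts were taken from the alignments, and any rule for shared reads, is stated in none of the sources used.

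Symbols came from NCBI's annotation of GRCm38.p6 (19742 of 19790 identifiers) and exon lengths from the union of GENCODE vM21 basic exons. The members and lists were chosen with earlier results of these data known. Counts kept by filterByExpr (minimum count 10, minimum total 15) were scaled by TMM and tested over all genes by glmQLFit and glmQLFTest in edgeR 4.0.16 under R 4.3.3, at a Benjamini-Hochberg adjusted p of 0.05. A standard error is the absolute log2 fold change over the root of F. Per-mouse values are given for members called in either of the fits with and without NCD replicate 1 and for the ether lipid enzymes. Genes of the pathway lists are named where called in either fit. A gene of the list of other peroxisome genes is not reported here.

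Alternatives were no filter, median-of-ratios (RLE) and upper-quartile scaling, total counts outside the seminal vesicle genes, DESeq2 1.42.0, the replicate number as a block, and each mouse left out. DESeq2 and RLE scaling without NCD replicate 1 were added after seeing the data. The scripts were tested on simulated data. Replicates differed by far more than sampling noise (116 to 3597 chi-square units for each degree of freedom), so none was treated as a duplicate. Each edgeR p-value sets the diet difference against the spread between these mice, estimated with information shared over genes. That spread includes the seminal vesicle admixture of the NCD libraries. Single counts were worth between 0.0151 and 0.0202 CPM before scaling, so precision is limited by the spread between mice except in *Far2*, *Slc27a2* and *Acox2*.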

Additional observations from a re-analysis of the deposited data

How the results depend on the processing

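With RLE and upper-quartile scaling the 2 member calls (*Pex11g* and *Abcd3*, lower) remained, with no filter and with total counts outside the seminal vesicle genes 1 remained (*Abcd3*), and none was higher in these fits. Scaling by total counts outside the seminal vesicle genes took the all-gene median from -0.08 to 0.02 and turned *Pex19* to 0.052 and *Ech1* to 0.083. DESeq2 called 8 members lower and 1 higher, and 3904 genes in all. The 8 were *Pex3*, *Pex26*, *Pex11a*, *Pex11g*, *Abcd3*, *Ehhadh*, *Phyh* and *Pecr*, and the higher gene was *Tmem189*.

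The mice included mattered most. Leaving out 1 mouse gave 0 to 12 members called lower, 0 to 2 higher and 2 to 3234 of all genes. The upper ends came without NCD replicate 1, and leaving out any 1 of the other 5 mice called no member and 2 to 7 genes in all. The cause was not tested. With NCD replicate 1 left out, DESeq2 called 19 members lower and 3 higher (5393 genes) and RLE scaling 12 lower and 2 higher (3226 genes). In these fits *Dhrs7b* was at -0.19 in both, *Hsd17b4* at -0.30 in both and *Hacl1* at -0.0017 and -0.0023.

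Over the fits that left out a mouse, estimates that changed sign ran from -0.35 to 0.22 for *Pex19*, -0.43 to 0.039 for *Pex6*, -0.13 to 0.44 for *Far1*, -0.18 to 0.40 for *Dhrs7b*, -0.30 to 0.35 for *Hsd17b4*, -0.32 to 0.038 for *Acaa1a*, -0.28 to 0.18 for *Ech1*, -0.55 to 0.098 for *Crat* and -0.66 to 0.11 for *Pxmp4*. The difference in log2 ratio ran from -0.84 to 0.56 for *Pex11a*/*Pex11g* and -0.69 to 0.48 for *Abcd2*/*Abcd3*.

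Mice with the same replicate number did not deviate together (correlations over genes of -0.0565, -0.0457 and 0.00965). This cannot decide whether the numbers pair the mice, since the deviations on NCD include the uneven seminal vesicle admixture. The replicate block called 0 members lower, 0 higher and 12 genes in all, and put *Pex19* and *Ech1* at 0.036 and 0.039. With 3 mice per diet the spread between mice, not depth, limited these comparisons, except for *Far2*, *Slc27a2* and *Acox2*.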
